A study of Mus musculus with 2 samples.

Results

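The 42 genes described here encode the enzymes and carriers that take glucose through glycolysis to lactate or acetyl-CoA and through the pentose phosphate pathway. They were taken by gene symbol from the 34745 genes of the RNA-seq tables, by their known roles, and every symbol was found. The study sequenced RNA of bone marrow (BM) LSKs of Scl/tTA-BA mice before (week-0) and 3 weeks after (week-3) doxycycline was withdrawn. LSKs are lineage-negative, Sca1+ and c-Kit+ cells, a gate that holds hematopoietic stem cells and early progenitors. Scl/tTA-BA mice carry the tetracycline transactivator (tTA) under control of the stem cell gene Scl, together with the leukemia fusion gene BCR/ABL (BA) under control of tTA, on the C57BL/6 background. This tet-off design keeps BA silent while doxycycline is given in the drinking water. The week-0 group was kept on doxycycline and is labelled as the control, and the week-3 group had been off doxycycline for 3 weeks. Mice of both groups were of the same transgenic line, and no library of mice that lost doxycycline without carrying BA was analysed here, so BA expression and doxycycline withdrawal cannot be told apart. The sources used here give neither age nor sex.

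LSKs of 3 mice were mixed for the single library of each group, so the spread between mice is unknown, no test of the conditions was possible, and every comparison is between these 2 libraries. The depth was 6356164 reads on genes for week-0 and 3886695 for week-3. Levels are given as FPKM, in which the reads of a gene are scaled by a gene length and by the depth of the library. The length used for each gene is not given. For some genes, among them Gapdh, Tpi1, Aldoa, Aldoc and Eno2, the values imply a length above that of the whole gene. Levels, ranks and shares that compare different genes depend on this length, while changes between the libraries do not. Changes are the log2 of FPKM at week-3 over FPKM at week-0, so 1 means 2 times higher at week-3. The 95% interval given with a change is an exact Clopper-Pearson interval from the reads. It covers counting error of reads alone, and counting error below means this. Because the cDNA was amplified, several reads can stem from 1 molecule. The interval can therefore be narrower than the sampling error of the RNA molecules. A gene entered the comparison with at least 1 read in each library and at least 20 reads over both, which 12082 of all genes and 41 of the 42 genes met.

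Glycolysis splits glucose into 2 molecules of pyruvate, first spending ATP in a preparatory phase and then regaining it in a payoff phase. Pyruvate is either reduced to lactate, which leaves the cell through monocarboxylate carriers, or enters mitochondria and is turned into acetyl-CoA by pyruvate dehydrogenase, which the pyruvate dehydrogenase kinases (Pdk) switch off. The pentose phosphate pathway leaves glycolysis at glucose 6-phosphate. Its oxidative branch makes NADPH, and its non-oxidative branch makes ribose 5-phosphate for nucleotides and returns carbon to glycolysis. Hematopoietic stem cells in the hypoxic marrow are known to rely on glycolysis, with Hif1a as an activator of many of its genes.

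Most of these genes were higher in the week-3 library. At week-0 the 42 genes took 52839 reads, or 0.831% of the library, and at week-3 they took 55199, or 1.42%. Their summed FPKM was 1868 at week-0 and 3091 at week-3. Of the 41 genes that passed, 28 were higher and 13 were lower, and the median change was 0.64 (range -1.53 to 2.31), beside a median of 0.07 over all 12082 genes. A ratio of at least 2 was reached by 10 of the 41 genes (24.4%), while 10.6% of all genes were that much higher. A ratio of at most 0.5 was found for 4 of them (9.76%), beside 14.9% of all genes. With wider limits, 21 of the 41 genes (51.2%) were at least 1.5 times higher, beside 23.9% of all genes. Another 10 (24.4%) were at most 0.67 times as high, beside 24.2% of all genes, so the share on the lower side was close to the background. The counting interval lay above no change for 26 genes, below it for 8, and covered it for 7.

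**Figure D1:**
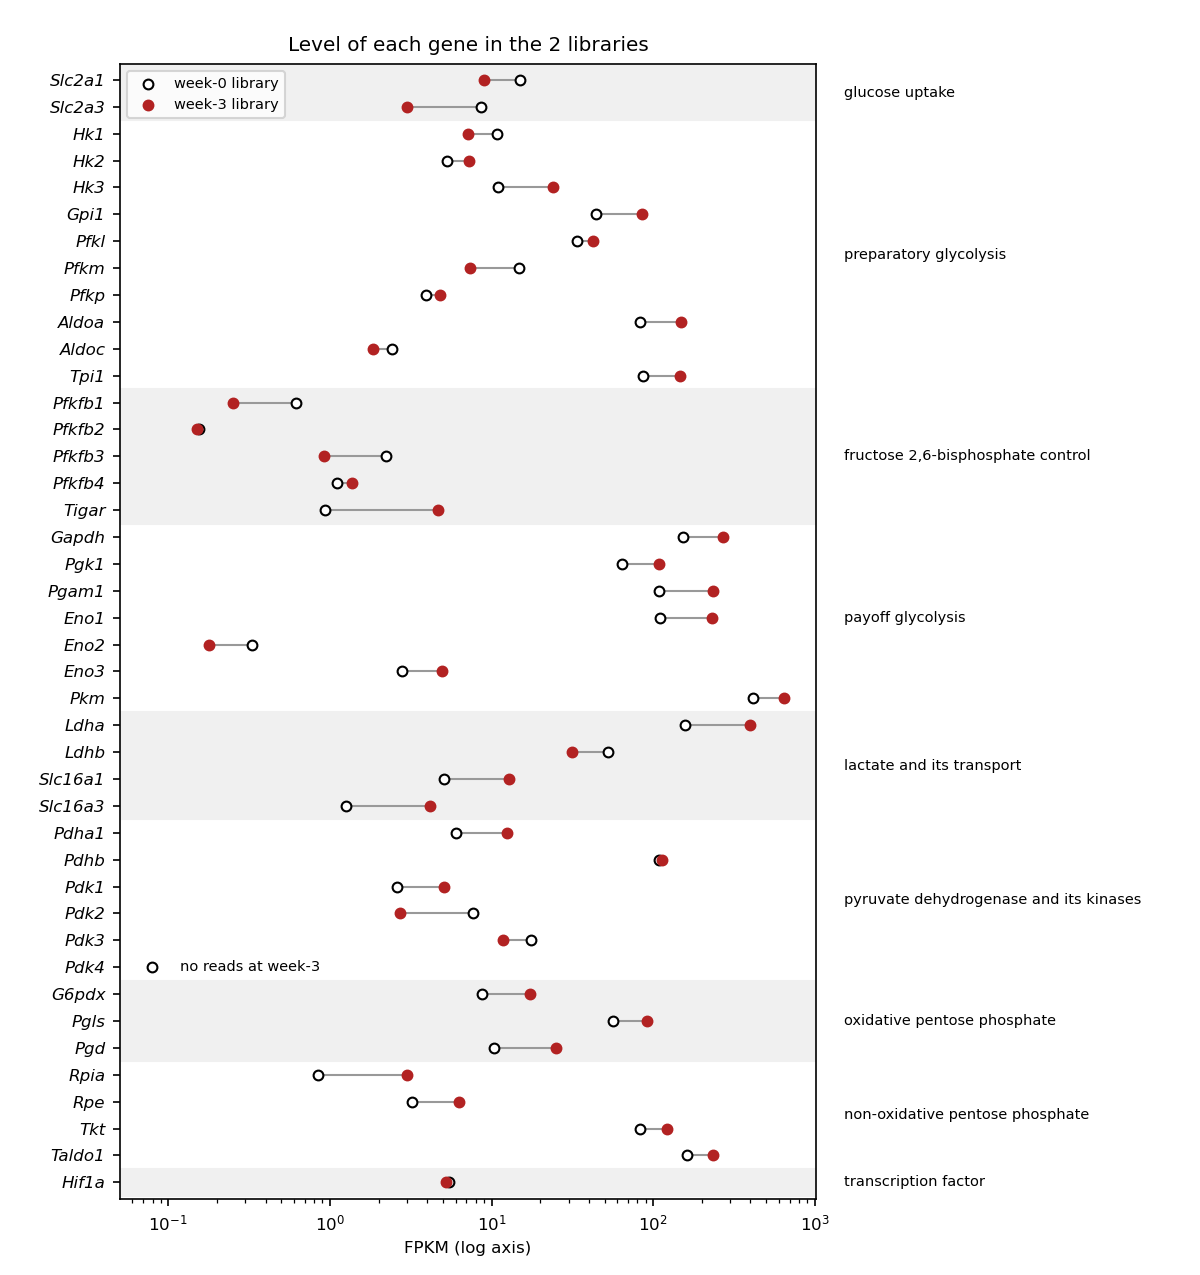
FPKM of the 42 genes (log axis) in the week-0 library (open circles) and the week-3 library (filled circles), 1 library each, grouped by role. Pkm had the highest FPKM in both libraries, both glucose carriers were lower at week-3, and all 7 pentose phosphate genes were higher at week-3.

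Abundant enzymes made up most of this difference. Of the 15 genes with a mean FPKM of at least 20, 14 were higher at week-3 and Ldhb was the exception, with a median change of 0.74. Their summed FPKM went from 1719 to 2908. Among all 2250 genes of that level, 1436 were higher and the median was 0.21. Of the 26 less abundant genes, 14 were higher and 12 were lower, with a median of 0.30, beside 0.03 over all genes under that level. The share higher was 53.8%, close to the 51.5% of all genes under that level. Each gene was also set beside all genes of a similar mean FPKM, in 9 ranges. There 28 of the 41 genes lay above the median of their range and 12 lay above its 90th percentile. These were Tigar, Rpia, Slc16a1, Slc16a3, Ldha, Pgd, Hk3, Pgam1, Eno1, Pdha1, G6pdx and Gpi1. Only Slc2a3 and Pdk2 lay below the 10th percentile of their range.

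**Figure D2:**
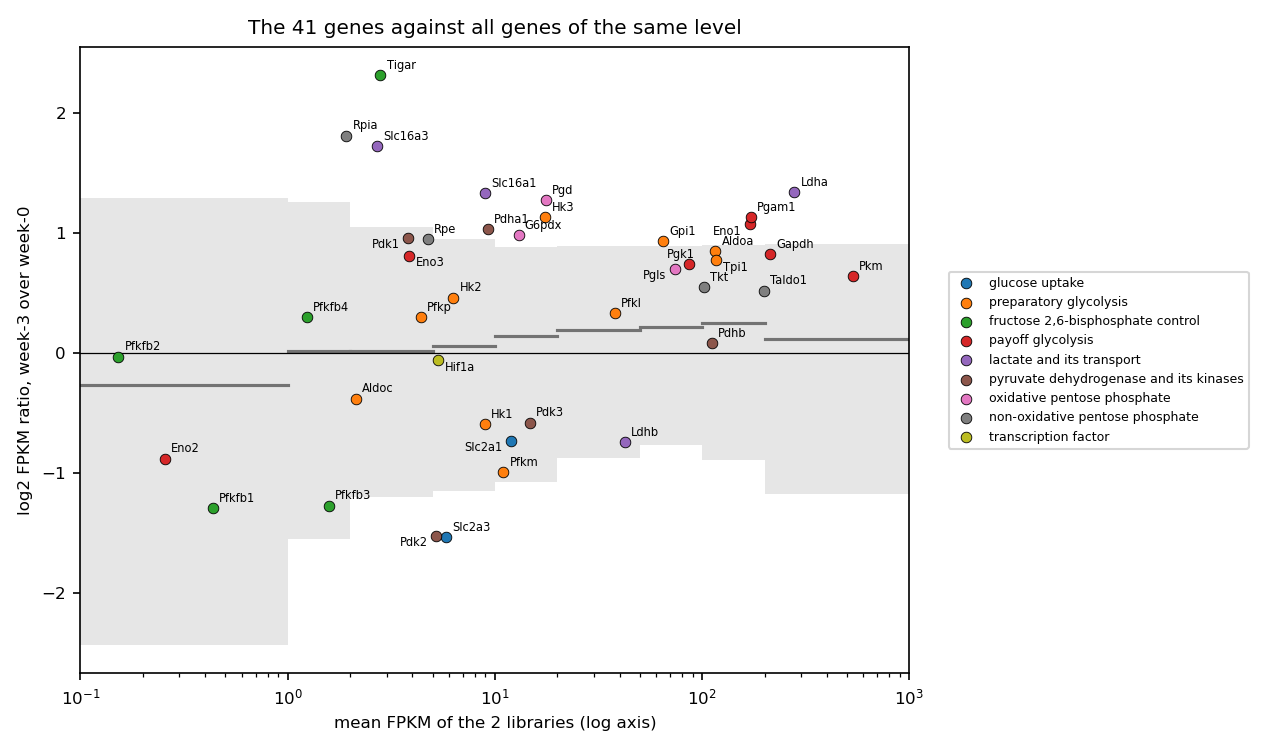
Change between the libraries (log2 FPKM ratio, week-3 over week-0) against the mean FPKM of both libraries (log axis) for the 41 genes, coloured by role. Grey lines are the medians and grey bands the 10th to 90th percentiles of all genes in the same FPKM range. Most points above 20 FPKM lie in the upper part of the band, and 12 genes lie above it.

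The 2 libraries also differed in their makeup. Kit and Ly6a, which the gate used, and 8 other stem and progenitor genes, with Flt3 and Cd34 the most abundant by reads, summed to 2337 CPM (reads per 1000000 reads) before withdrawal and to 1013 CPM at week-3, with 9 of the 10 genes lower. The c-Kit gene Kit (log2 change -0.55) and the Sca1 gene Ly6a (-0.42) were well detected in both libraries. All 10 neutrophil and precursor genes were at least 2 times higher at week-3 and their sum went from 3496 to 16485 CPM. Of 10 mast cell or basophil genes that passed, 8 were at least 2 times higher, with sums of 529.6 and 4330, and the mast cell tryptase gene Tpsb2 had 0 and 5442 reads. The other 2 that passed, Prss34 (1300 and 380 reads, -1.06) and Gata2 (896 and 378 reads, -0.54), were lower. Monocyte or macrophage genes summed to 244 and 932, most of it Ly6c2 (1118 and 3148 reads). Of the 4 that passed, 3 were higher and Cd14 was lower (278 and 98 reads, -0.79). All 8 erythroid genes were lower, with sums of 1269 and 116. B or plasma cell genes summed to 913 and 82.3, with Jchain (5120 and 96 reads) most of the week-0 sum. Of the 4 that passed, 3 were lower, and the interval of Cd79b (314 and 216 reads, 0.17) covered no change. T or NK cell genes summed to 449 and 677, nearly all of it Nkg7, while the 5 T cell genes had 2 to 5 reads each in the first library and 0 to 2 in the second, with Cd3e and Cd8a at 0. Of 10 proliferation genes, 8 were higher, with a median change of 0.23 and sums of 1498 and 1777. These shifts stand beside every result below, and their part in them was not tested. In RNA of mixed cells, fewer cells of a type and less RNA per cell cannot be told apart. BA has no row of its own in the tables. The rows of Bcr (371 week-0 reads and 108 week-3 reads) and Abl1 (395 and 144) were lower at week-3 and did not check the induction. By qRT-PCR of LSKs, the paper reports significantly higher BA expression at week-3.

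Glucose enters cells through facilitative carriers, and both carriers were lower at week-3. Slc2a1 (GLUT1), the broadly used basal carrier, had 494 week-0 reads and 182 week-3 reads, or 14.9 and 8.97 FPKM. Its log2 change was -0.73 (95% interval -0.98 to -0.48). Slc2a3 (GLUT3; ENSMUSG00000003153, protein-coding, chromosome 6 of GRCm38, 122727809 to 122801640, minus strand), a high-affinity carrier, had 600 and 127 reads, or 8.64 and 2.99 FPKM. With a change of -1.53 (-1.82 to -1.25), it was the gene with the lowest ratio of the 41. The ratio of Slc2a1 to Slc2a3 went from 1.72 to 3.00, which is 1.74 times (1.34 to 2.27) higher. Such a ratio of 2 genes within a library does not depend on how the libraries are scaled.

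Hexokinases trap glucose as glucose 6-phosphate, and the 3 isozymes moved apart. Hk1, the housekeeping isozyme bound to mitochondria, had 848 and 344 reads (10.8 and 7.15 FPKM, log2 change -0.59, interval -0.78 to -0.41). Hk2, the inducible isozyme, had 231 and 194 reads (5.30 and 7.28 FPKM, 0.46, interval 0.17 to 0.74). Hk3, an isozyme prominent in myeloid cells, had 428 and 571 reads (11.0 and 24.1 FPKM, 1.13, interval 0.94 to 1.31). By FPKM Hk1 and Hk3 were level at week-0, with 39.8% and 40.7% of the hexokinase sum. By reads, which are not scaled by length, the shares at week-0 were 56.3% for Hk1 and 28.4% for Hk3. At week-3 Hk3 held 62.5% of the FPKM, Hk1 18.6% and Hk2 18.9%, and by reads Hk3 held 51.5% and Hk1 31.0%. The ratio of Hk3 to Hk1 went from 1.02 to 3.37, or 3.29 times (2.74 to 3.94) higher, and that of Hk2 to Hk1 was 2.07 times (1.64 to 2.62) higher.

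The next steps of the preparatory phase were carried by abundant enzymes that were higher at week-3. Gpi1, which turns glucose 6-phosphate into fructose 6-phosphate, had 44.5 and 84.9 FPKM (2590 and 3019 reads, log2 change 0.93, interval 0.85 to 1.01). Aldoa, the main aldolase, had 82.8 and 149.7 FPKM (3112 and 3439 reads, 0.85, interval 0.78 to 0.92). Tpi1, which interconverts the triose phosphates, had 86.4 and 147 FPKM (2168 and 2261 reads, 0.77, interval 0.68 to 0.86). All 3 were at least 1.5 times higher and none reached 2 times. Aldoc, the brain-type aldolase, stood at 2.41 and 1.86 FPKM (85 and 40 reads), and its interval of -0.96 to 0.18 covered no change. Aldoa thus held 97.2% of aldolase FPKM at week-0 and 98.8% at week-3.

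Phosphofructokinase, which commits sugar to glycolysis, showed a shift between subunits with little change in the sum, which was 52.4 FPKM at week-0 and 54.5 at week-3. Pfkl, the liver-type subunit, had 33.7 and 42.3 FPKM (1046 and 802 reads, log2 change 0.33, interval 0.19 to 0.46). Pfkm, the muscle-type subunit, had 14.7 and 7.40 FPKM (276 and 85 reads, -0.99, interval -1.36 to -0.63), and with a ratio of 0.504 it stayed just outside the limit of 0.5. Pfkp, the platelet-type subunit, had 3.93 and 4.83 FPKM (297 and 223 reads, 0.30, interval 0.04 to 0.55). The share of Pfkl went from 64.4% to 77.6% and that of Pfkm from 28.0% to 13.6%. The ratio of Pfkl to Pfkm was 2.49 times (1.91 to 3.27) higher at week-3. Pfkm and Pfkp share exon bases with Senp1 and Pitrm1 on the opposite strand, and without a stated strand setting such reads cannot be assigned.

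**Figure D3:**
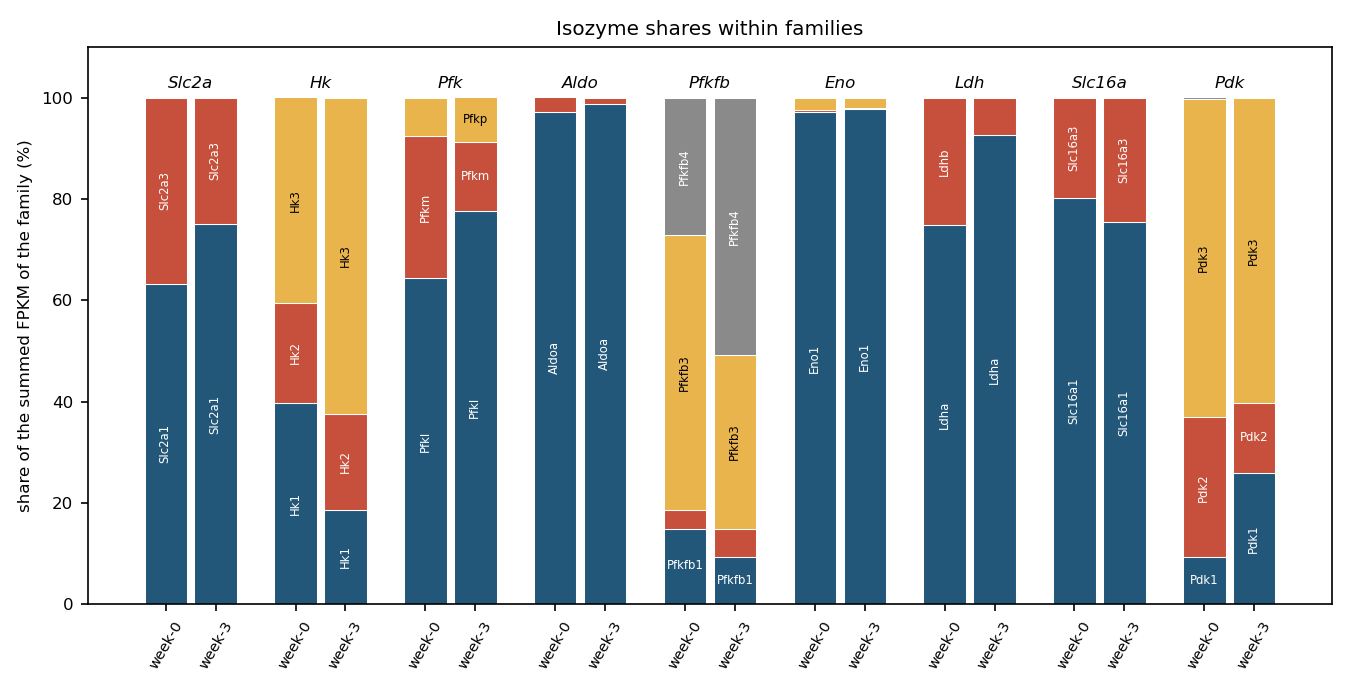
Share of the summed FPKM of each family (percent, bars start at 0) taken by each isozyme in the week-0 and week-3 libraries. Ldhb went from 25.2% to 7.37% of the lactate dehydrogenase FPKM, Hk3 from 40.7% to 62.5% of the hexokinases and Pdk1 from 9.25% to 25.9% of the Pdk family. Segments under 8% carry no name.

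Fructose 2,6-bisphosphate is the strongest activator of phosphofructokinase. Its level is set by the bifunctional Pfkfb enzymes and lowered by Tigar, a p53-inducible phosphatase that sends glucose 6-phosphate towards the pentose phosphate pathway. Tigar (ENSMUSG00000038028, protein-coding, chromosome 6, 127085116 to 127109557, minus strand) had 25 week-0 reads and 76 week-3 reads, or 0.938 and 4.66 FPKM. Its log2 change of 2.31 (interval 1.65 to 3.03) was the highest of the 41. Pfkfb3, the isozyme with the strongest kinase bias, went the other way, with 269 and 68 reads or 2.24 and 0.926 FPKM (-1.27, interval -1.68 to -0.89). The ratio of Tigar to Pfkfb3 was 0.418 at week-0 and 5.03 at week-3, or 12.0 times (6.92 to 21.2) higher. The other isozymes had few reads. Pfkfb1 had 20 and 5 reads with a ratio of 0.409, but its interval of -3.06 to 0.17 covered no change. Pfkfb2 had 15 and 9 reads (-0.03, interval -1.40 to 1.26) and Pfkfb4 had 61 and 46 (0.30, interval -0.28 to 0.88), and neither differed beyond counting error. Pfkfb1 and Pfkfb2 also share exon bases with the opposite-strand genes Apex2 (119 and 43 reads) and Yod1 (186 and 154 reads), which had more reads than they did. The summed Pfkfb level was 4.12 FPKM at week-0 and 2.70 at week-3.

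In the payoff phase, 6 of 7 genes were at least 1.5 times higher, and the phase as a whole went from 3676 to 6615 CPM. Gapdh, which makes the first NADH of glycolysis, had 8404 and 9090 reads, or 153 and 271 FPKM (log2 change 0.82, interval 0.78 to 0.87). Pgk1, the first ATP-making enzyme, had 64.6 and 108 FPKM (1253 and 1276 reads, 0.74, interval 0.62 to 0.85). Pgam1, the phosphoglycerate mutase, had 108 and 236 FPKM (1256 and 1677 reads, 1.13, interval 1.02 to 1.23). Eno1, the ubiquitous enolase, had 110.2 and 231 FPKM (5506 and 7052 reads, 1.07, interval 1.02 to 1.12). Pgam1 and Eno1 were thus more than 2 times higher. Their counting intervals lay just above that limit under scaling by reads on genes, and not under the other scalings described below. Pkm (pyruvate kinase; ENSMUSG00000032294, protein-coding, chromosome 9, 59656368 to 59679375, plus strand) was the most abundant of the 42 genes in both libraries, at 415 and 648 FPKM (6862 and 6548 reads, 0.64, interval 0.59 to 0.69). That rank is by FPKM, and by reads Gapdh was above Pkm in both libraries. The counts are per gene, so the splice forms PKM1 and PKM2 were not told apart. The tissue-restricted enolases were minor. Eno3 had 2.80 and 4.91 FPKM (56 and 60 reads, 0.81, interval 0.26 to 1.36), and Eno2 had 27 and 9 reads, with an interval of -2.15 to 0.26 that covered no change.

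Gapdh, Pgk1, Pgam1 and Eno1 have near-identical copies whose reads the counting could have split. Copies in the tables, at least 95% identical to the coding sequence, held 323 and 340 reads for Gapdh, 147 and 179 for Pgk1 (Pgk1-rs7), 85 and 36 for Pgam1 (Pgam1-ps2) and 201 and 247 for Eno1 (Eno1b). These were 3.84% and 3.74% of the reads of Gapdh, 11.7% and 14.0% of those of Pgk1, 6.77% and 2.15% of those of Pgam1, and 3.65% and 3.50% of those of Eno1. With these reads added, the changes were 0.82, 0.77, 1.06 and 1.06, and each gene stayed on the same side of the limits. Of 82 copies of Gapdh in the reference, only 8 had a row of their own. None of the 5 copies of Ldha or the 2 of Pkm had one. Reads of copies without a row could not be added.

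Genes of lactate and its transport went from 859 to 1981 CPM, and 3 of the 4 were more than 2 times higher, while Ldhb was lower. Ldha (ENSMUSG00000063229, protein-coding, chromosome 7, 46841475 to 46855627, plus strand) encodes the M subunit of lactate dehydrogenase, which favours making lactate from pyruvate. It had 4588 and 7097 reads, or 157 and 398 FPKM (log2 change 1.34, interval 1.29 to 1.39). By FPKM it moved from the third to the second most abundant of the 42 genes. Ldhb encodes the H subunit, which favours the reverse reaction, and had 662 and 242 reads, or 52.9 and 31.6 FPKM (-0.74, interval -0.96 to -0.53). The ratio of Ldha to Ldhb went from 2.97 to 12.6, or 4.23 times (3.63 to 4.95) higher, and Ldhb was the only one of the 15 abundant genes that was lower. Slc16a1 (MCT1), a monocarboxylate carrier, had 143 and 220 reads, or 5.08 and 12.8 FPKM (1.33, interval 1.02 to 1.65). Slc16a3 (MCT4), a carrier suited to lactate export, had 70 and 141 reads, or 1.26 and 4.15 FPKM (1.72, interval 1.30 to 2.15). Both carriers were higher, and the ratio of Slc16a3 to Slc16a1 differed by 1.31 times with an interval of 0.905 to 1.90.

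**Figure D4:**
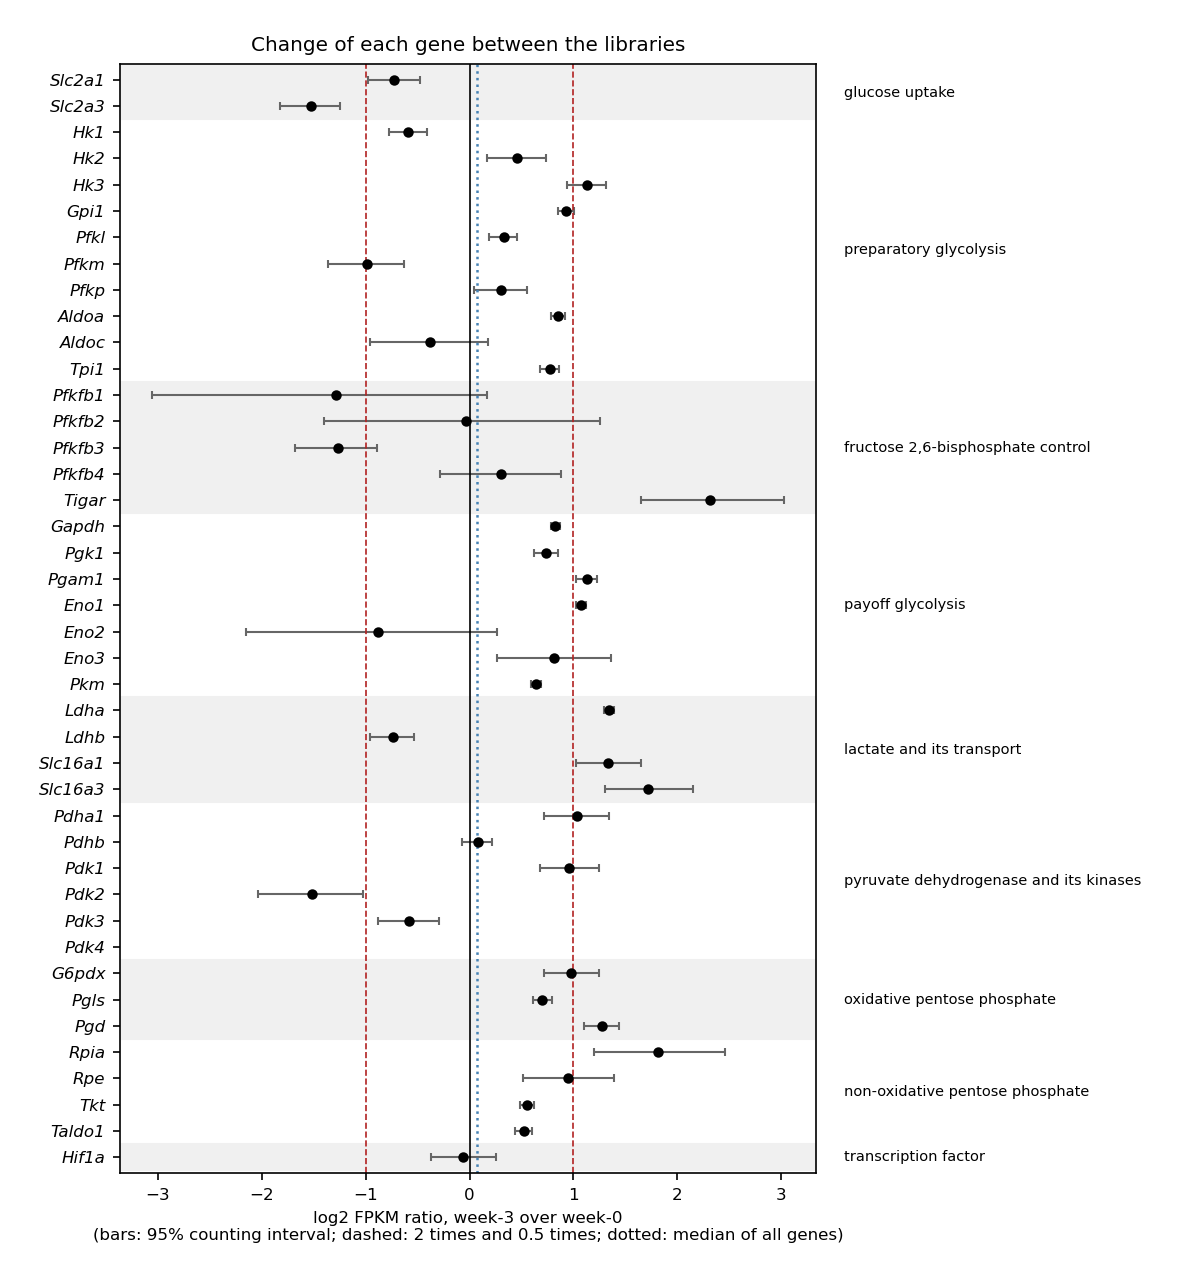
Change of each gene (log2 FPKM ratio, week-3 over week-0) with its 95% counting interval, grouped by role. Dashed lines mark 2 times and 0.5 times, and the dotted line marks the median of all genes (0.07). Pdk4 has no point because it had 2 and 0 reads. The intervals of 8 genes lie wholly above 2 times and those of Slc2a3 and Pdk2 wholly below 0.5 times. This holds for scaling by reads on genes, and the lower bounds of Pgam1, Eno1 and Slc16a1 are only 1.02.

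At the entry to the mitochondrion the genes did not move together. Pdha1 (the E1 alpha subunit of pyruvate dehydrogenase) had 157 and 196 reads, or 6.06 and 12.4 FPKM (log2 change 1.03, interval 0.72 to 1.34). With a ratio of 2.04 it was just inside the limit of 2. Pdhb, the beta subunit of the same enzyme, had 108 and 114 FPKM (1023 and 660 reads, 0.08), and its interval of -0.07 to 0.22 covered no change. The ratio of Pdha1 to Pdhb was 1.94 times (1.52 to 2.46) higher at week-3. The kinases that inactivate the enzyme split in the same library. Pdk1, a hypoxia-inducible kinase, had 186 and 222 reads, or 2.59 and 5.06 FPKM (0.96, interval 0.68 to 1.25). Pdk2, a widely expressed kinase (ENSMUSG00000038967, protein-coding, chromosome 11, 95026258 to 95041354, minus strand), had 192 and 41 reads, or 7.73 and 2.70 FPKM (-1.52, interval -2.04 to -1.03). Pdk3 had 340 and 139 reads, or 17.6 and 11.8 FPKM (-0.58, interval -0.88 to -0.29). Pdk4 had 2 week-0 reads and 0 week-3 reads, which is under the read minimum, and no ratio was computed. Pdk3 had the largest share of the Pdk FPKM in both libraries, 62.9% and 60.3%, whereas by reads, which are not scaled by length, Pdk1 held 55.2% and Pdk3 34.6% at week-3. The share of Pdk1 went from 9.25% to 25.9% and that of Pdk2 from 27.6% to 13.8%, so that the ratio of Pdk1 to Pdk2 turned from 0.335 to 1.87 (5.59 times, interval 3.73 to 8.46).

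All 3 genes of the oxidative pentose phosphate branch were at least 1.5 times higher at week-3, and the branch went from 416 to 747 CPM. G6pdx, the rate-limiting dehydrogenase, had 214 and 259 reads, or 8.73 and 17.3 FPKM (log2 change 0.98, interval 0.72 to 1.25). At a ratio of 1.98 it was just outside the limit of 2. It shares exon bases with Ikbkg on the opposite strand, which had 120 and 65 reads. Pgls, the lactonase, had 56.2 and 91.3 FPKM (1948 and 1935 reads, 0.70, interval 0.61 to 0.79). Pgd, the second NADPH-making dehydrogenase, had 481 and 710 reads and was 2.41 times higher (1.27, interval 1.10 to 1.44). The ratio of Pgd to G6pdx differed by 1.22 times with an interval of 0.978 to 1.52, so the changes of the 2 dehydrogenases did not differ beyond counting error.

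The 4 genes of the non-oxidative branch were higher as well, and the branch went from 1048 to 1542 CPM. Rpia, which makes ribose 5-phosphate, had 33 and 71 reads, or 0.849 and 2.99 FPKM (log2 change 1.81), and its counting interval lay above 2 times. Rpe, the epimerase, had 82 and 97 reads, or 3.24 and 6.28 FPKM (0.95, interval 0.51 to 1.39). Rpe shares exon bases with Kansl1l on the opposite strand, which had 97 and 69 reads. The 2 enzymes that exchange carbon with glycolysis were far more abundant and differed less. Tkt (transketolase) had 82.6 and 121 FPKM (3923 and 3517 reads, 0.55, interval 0.49 to 0.62). Taldo1 (transaldolase) had 163 and 234 FPKM (2626 and 2308 reads, 0.52, interval 0.44 to 0.60). By FPKM it moved from the second to the fifth most abundant of the 42 genes.

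Hif1a itself, the oxygen-regulated subunit of HIF-1, had 240 week-0 reads and 141 week-3 reads, or 5.43 and 5.22 FPKM. Its change of -0.06 lay within counting error (interval -0.37 to 0.25). HIF-1 is controlled mainly by protein stability, which mRNA does not show. Of 6 oxygen-sensing genes that passed, 2 were higher and 4 were lower (median -0.43), and Egln3, a HIF prolyl hydroxylase and itself a HIF target, was at most 0.5 times as high, with 703 and 151 reads (41.5 and 14.6 FPKM, -1.51, interval -1.77 to -1.25). Of 13 hypoxia-inducible genes outside glycolysis that passed, 7 were higher and 6 were lower, with a median of 0.01, which TMM or median-of-ratios scaling turned to -0.11 or -0.08. Vegfa, the angiogenic factor, had 183 and 14 reads (a ratio of 0.125, interval of the log2 change -3.90 to -2.22) and Ndrg1 had 1014 and 290 (-1.10, interval -1.29 to -0.91). Ero1l, an oxidase of the endoplasmic reticulum, went the other way with 166 and 361 reads (1.83, interval 1.56 to 2.10). The hypoxia-inducible genes outside glycolysis thus had no common direction in these libraries.

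HIF-1 binds DNA at a core of ACGTG or GCGTG, and the E-box CACGTG, a site of Myc and of the glucose sensors MondoA and ChREBP, contains the first of these on both strands. The cores were searched on both strands of RefSeq promoter windows (GRCm38.p6, 250 bases before to 50 after each start), which 41 of the 42 genes had. Slc2a3 had no entry. A core was found in 75.4% of the 61 windows of these genes, in 62.0% of the 11255 windows of genes that passed the read minimum and in 43.8% of all 32851 windows. The E-box was found in 7 of the 61, in 1130 of the 11255 and in 2349 of the 32851. Windows of 1 gene can overlap, and base composition was not matched. Capitals mark the core, or its reverse complement CACGT where the core lay on the opposite strand. In the lines labelled E-box, CACGT is the start of CACGTG. The sites below, shown 5′ to 3′ on the strand of the gene, come from genes on both sides of the comparison.
Ldha, chr7:46845647-46845675, plus strand, E-box: ggtgtcgcagcaCACGTggagccactctt
Slc16a1, chr3:104638452-104638480, plus strand, E-box: gcggcgccgggtCACGTggcgggaagggg
Slc16a3, chr11:120949028-120949056, plus strand: caggcagcggtgACGTGcgcgggggacgt
Pgam1, chr19:41911745-41911773, plus strand: cgctccttgcttACGTGcgctccgtgact
Pdk2, chr11:95041481-95041509, minus strand, E-box: ctcgaggagagcCACGTgtcgaagcgcaa
Pfkfb3, chr2:11502127-11502155, minus strand, E-box: cacccttctctcCACGTgaaagggggctg
Slc2a1, chr4:119108697-119108725, plus strand: gtcccgccccggACGTGctccccaggccc
The first 4 genes were more than 2 times higher at week-3, and the last 3, Pdk2, Pfkfb3 and Slc2a1, were lower. These sites were picked from both sides and a core is common in promoters, so finding it on both sides tells nothing about direction. One window of Ldha held 7 cores, of which 4 came from 2 E-boxes counted on both strands, while the window of Tigar, the gene with the highest ratio, held none. By gene, a core was found for 36 of the 41 and for 6002 of the 8798 genes that passed the read minimum and had an entry. Genes at least 2 times higher had a core in 12 of 14 windows (9 of 10 genes), and genes at most 0.5 times as high in 4 of 8 windows (3 of 3 genes). These matches describe the sequence and do not show binding.

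Further lists hold other genes around these pathways. Of 19 other isozymes of the same steps, 6 passed, with 2 higher and 4 lower and a median of -0.72. The most abundant of them, Adpgk, an ADP-dependent glucokinase, had 282 and 211 reads (0.29, interval 0.03 to 0.55) and was chosen after its values were seen. Pgam2, the muscle mutase (19 and 4 reads, -1.54, interval -3.55 to 0.05), and Ldhd, a D-lactate dehydrogenase (26 and 6 reads, -1.41, interval -2.98 to -0.09), had ratios under 0.5, and the interval of Pgam2 covered no change. Of the other glucose and monocarboxylate carriers, 11 of 22 passed, with 5 higher and 6 lower and a median of -0.29. Slc37a4, which carries glucose 6-phosphate into the endoplasmic reticulum, had 96 and 163 reads (7.25 and 20.1 FPKM, 1.47, interval 1.10 to 1.85). Slc2a9 (34 and 10 reads, -1.06, interval -2.24 to -0.01) and Slc2a10 (23 and 6 reads, -1.23) had ratios under 0.5, and the interval of Slc2a10, -2.82 to 0.11, covered no change. Slc2a8 (97 and 99 reads, 0.74, interval 0.32 to 1.16) was higher, and the interval of Slc2a6 (0.19, -0.23 to 0.60) covered no change. Both were named after their values were seen. The median of the other carriers turned to 0.23 when only genes with at least 100 reads were kept, so they had no common direction.

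The lists of the steps that pyruvate and the glycolytic intermediates enter next had medians above the 0.07 of all genes. Of all genes 53.8% were higher. Over all genes with a mean FPKM of at least 20, the median was 0.21 and 63.8% were higher. Of 9 other pyruvate dehydrogenase and pyruvate carrier genes, 6 were higher (median 0.47), and the phosphatase Pdp2, which reactivates the enzyme, had 120 and 149 reads (5.42 and 11.0 FPKM, 1.02, interval 0.67 to 1.38). Of 16 citric acid cycle genes, 13 were higher and none reached 2 times (median 0.36). Among them Sdhd, the most abundant by FPKM and a subunit of succinate dehydrogenase, had 148 and 208 FPKM (0.49). All 5 genes of the serine and glycine branch, which starts from 3-phosphoglycerate, were higher (median 0.65), with Phgdh, its first enzyme, at 193 and 301 FPKM (0.64, interval 0.57 to 0.71). The serine branch thus had nearly the same median as the 41 genes. Of 11 glycogen genes, 7 were higher (median 0.18), and Gyg, the glycogen primer, had 16.6 and 32.0 FPKM (0.95, interval 0.76 to 1.13). All 3 gluconeogenesis genes that passed were higher (median 0.35), and G6pc3, a glucose 6-phosphatase, had 23.0 and 36.6 FPKM.

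Of 5 hexosamine genes, 3 were higher (median 0.26), while Gfpt2, an isozyme of its first step, had 68 and 11 reads (-1.92, interval -2.99 to -0.99). The glycerol phosphate branch had 1 gene higher and 1 lower, and Gpd2, its more abundant dehydrogenase, had 350 and 174 reads (-0.30, interval -0.57 to -0.03). Downstream of ribose 5-phosphate, 2 of 5 genes towards PRPP were higher (median -0.08), and Rbks, the ribokinase, had 65 and 125 reads (6.75 and 21.2 FPKM, 1.65, interval 1.21 to 2.11). All 4 other NADPH sources that passed were higher (median 0.58). Idh1, the cytosolic NADP-dependent isocitrate dehydrogenase, had 71 and 226 reads, or 2.47 and 12.9 FPKM (2.38, interval 1.99 to 2.79), close to the change of Tigar. Of 4 genes of the glucose-sensing MondoA and ChREBP axis that passed, the partner Mlx had 110 and 151 reads (1.17, interval 0.80 to 1.53) and MondoA (Mlxip) had 929 and 235 (-1.27, interval -1.49 to -1.07).

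**Figure D5:**
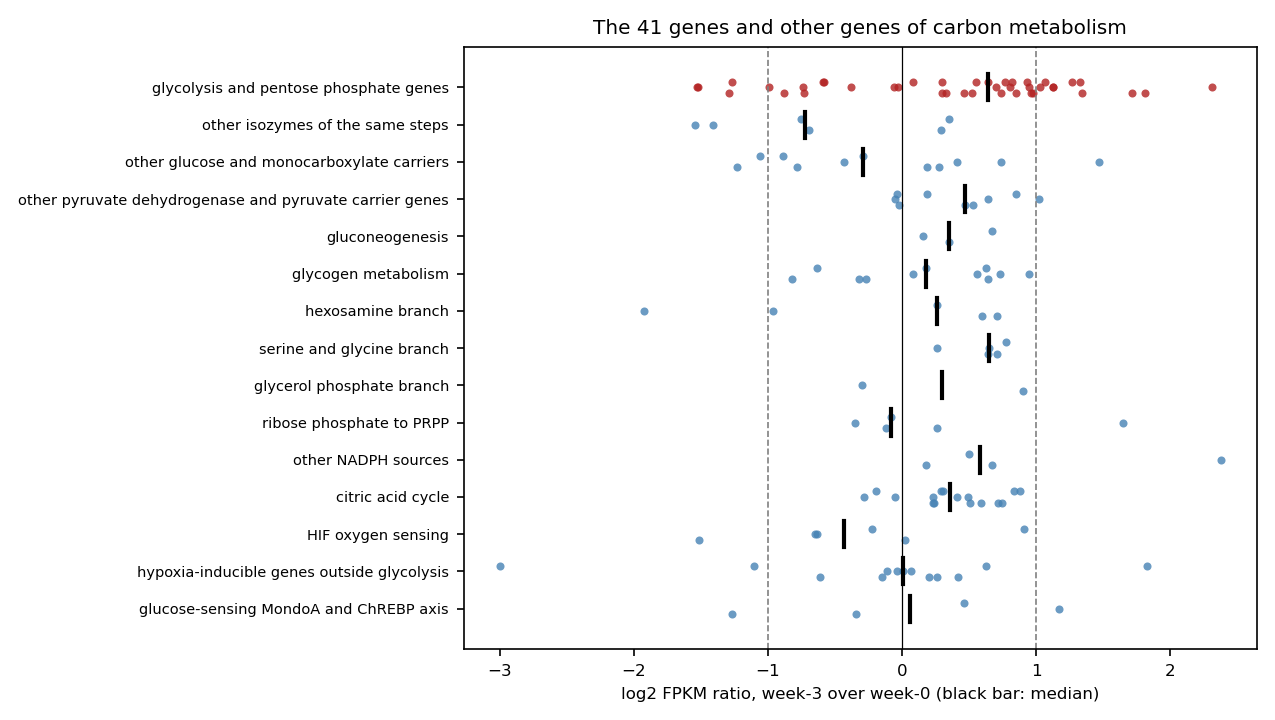
Change (log2 FPKM ratio, week-3 over week-0) of the glycolysis and pentose phosphate genes (top row) and of further lists of carbon metabolism, 1 point per gene that passed the read minimum. Black bars are medians and dashed lines mark 2 times and 0.5 times. The medians run from -0.72 for the other isozymes of the same steps to 0.65 for the serine and glycine branch, beside 0.64 for the 41 genes.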

How the data were processed

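RNA of sorted BM LSKs was prepared by the authors with an ultra-low-input cDNA kit, sequenced from paired ends, trimmed and mapped to GRCm38 (mm10 in the submitters' processing notes) with TopHat2 2.0.9. The authors deposited raw read counts per gene, in whole numbers, and FPKM. The deposited FPKM are scaled by the reads on genes, since reads per FPKM differ between the libraries by 1.635 times, as do their totals. The counting tool, its strand setting and the annotation release are not given in the sources used here.

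Ratios were taken from FPKM without a pseudocount. Ratios of 2 genes have exact conditional 95% intervals. A count of 0 allows up to 3 reads, or 0.472 CPM at week-0 and 0.772 at week-3. The named genes were all 42 genes and, from each further list, genes past 2 times or, if none, its most abundant gene. Members and lists were chosen with earlier results of these data known. Alternatives were TMM (edgeR 4.0.16) and median-of-ratios (DESeq2 1.42.0) scaling, other read and FPKM minimums, pseudocounts, edgeR's exact test with an assumed biological coefficient of variation and, chosen after seeing the data, reads of copies added. Copies were found with BLAST+ 2.17.0 in GENCODE M21, where 38 of the 42 genes had the coordinates of the tables. Procedures were tested on simulated data. Python 3.11.15 and R 4.3.3 were used.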

Additional observations from a re-analysis of the deposited data

How the results depend on the processing

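No paired analysis was possible because each group was 1 library, and leaving out a replicate was impossible for the same reason. TMM scaling moved every change by -0.11 and median-of-ratios by -0.09. Of the 41 genes, 40 kept their direction under both, Pdhb being the exception. Under either scaling 8 genes were at least 2 times higher in place of 10 (Eno1 and Pdha1 dropped under the limit) and 5 were at most 0.5 times as high in place of 4 (Pfkm passed it). The log2 lower bounds of Pgam1, Eno1 and Slc16a1 (1.02 each) fell under the limit of 2 times with either scaling. That of Pgd (1.10) did so with TMM. The median change stayed between 0.53 and 0.72 under all 7 alternatives. By shares of reads, 24 of 25 isozymes moved in the same direction as by FPKM, and Hk2 moved the other way, but 38 of the 50 shares themselves lay outside counting error of the FPKM share, since reads are not scaled by length.

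With edgeR's exact test at an assumed biological coefficient of variation of 0.1 and q under 0.05, 10 genes were called at 2 times higher and 3 lower. At 0.4, the test called 0 genes of the pathways in either direction, at 2 times as at 1.5 times, and 34 higher and 106 lower of all genes at both limits. The true variation between mice is unknown, so the calls depend on that assumption. Over all genes, 1284 were at least 2 times higher, 2191 without the minimum of 20 reads and 662 with at least 100. The number at most 0.5 times as high was 1802, and 990 with at least 100 reads. At 0.67 times it was 2923, and 1774 with at least 100 reads. The median of the T or NK cell genes turned from 0.60, which is 1 gene, to -0.29 without the minimum. The medians of the carriers (-0.29) and of the glycerol phosphate genes (0.30) also changed sign, to 0.23 with at least 100 reads and to -0.30 without the minimum, that of the other NADPH sources moved from 0.58 to 1.19 without the minimum, and the hypoxia-inducible and MondoA lists stayed near 0. The depth limits, beside any overlap, Pfkfb1, Pfkfb2, Pfkfb4, Eno2 and Aldoc, whose counting intervals covered no change.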

Other observations

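The gene tables carry KEGG pathway annotation, which gives wider lists than the 42 genes, chosen here after seeing the data. Of 64 genes annotated to Glycolysis / Gluconeogenesis, 43 passed the read minimum, with 32 higher and 11 lower at week-3 and a median change of 0.35. Without the 42 genes, 23 remained, with 17 higher and 6 lower and a median of 0.29. Of 29 genes annotated to the Pentose phosphate pathway, 22 passed, with 18 higher and 4 lower and a median of 0.53. The 9 of them outside the 42 genes had 7 higher and 2 lower and a median of 0.26. Genes of the further lists described above were not taken out of either remainder. Over all 12082 genes, 6496 (53.8%) were higher and the median was 0.07.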
